A study of Mus musculus with 8 samples.

Results

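Described here are 10 genes of the Notch pathway across 8 mouse livers: the receptors Notch1, Notch2, Notch3 and Notch4, the ligands Jag1, Jag2 and Dll4, and the target genes Hes1, Hey1 and Heyl. They were taken by name, out of the 35275 gene identifiers measured. The livers were profiled by RNA sequencing and fall into 2 genotypes, WT and Triple LKO, with 4 livers each and both sexes in each, so that every genotype and sex holds 2 livers. The series title describes the Triple LKO as a liver-specific loss of the 3 proteins of the TTP family, which bind AU-rich elements in messenger RNAs and promote their decay, in a model that develops liver cancer. The sources used here do not give the agent and promoter of the deletion, the deleted exons, the age and strain of the mice, the alleles that the WT livers carry, or whether a piece was tumour or other tissue. The labels do not say that animals were pooled or that each library came from a separate animal, so p-values measure the spread between libraries.

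Notch signalling passes between touching cells. A Jagged or Delta-like ligand on one cell binds a Notch receptor on its neighbour, proteases cut the receptor in succession, and its intracellular part enters the nucleus, where it joins RBPJ and Mastermind-like proteins and switches on target genes of the HES and HEY families. In the liver, Notch2 and Jag1 are known for the formation of bile ducts, Notch1, Notch4 and Dll4 for endothelium, Notch3 for mural cells of vessels, and Hes1 is a widely used readout.

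Values are FPKM, fragment counts scaled to transcript length and library depth, which can be compared between genes because they are per length. Depth was 15109700 to 18788679 fragments per library, and a member drew between 0 and 1346 fragments in a library. Of the deleted genes, Zfp36 lay at 29.5 to 61.4 FPKM in WT and at 3.66 to 17.4 in Triple LKO livers, and Zfp36l1 at 10.6 to 21.9 and at 0.499 to 8.63. Both were less reduced in the Triple LKO females. Zfp36 measured 11.6 and 17.4 FPKM in them and 4.51 and 3.66 in the Triple LKO males. Zfp36l1 measured 4.67 and 8.63 in those females and 0.499 and 0.695 in those males. Its difference within females had a limma adjusted p of 0.0798. Zfp36l2 went against the label in both Triple LKO females, at 18.1 and 33.0 FPKM against 11.8 to 17.2 in the WT livers, while both Triple LKO males were at 4.34 and 3.86. Fragments outside the deleted exons, whose position is not given, would still be counted. The Triple LKO females are therefore called females labelled Triple LKO where a direction rests on them, and each member is also given for males alone. Those females also stood apart in their libraries, with 2.8% and 3.44% of fragments from mitochondrial genes against 6.52% to 10.41% in the other 6, and with 12667 and 12798 genes at 1 FPKM or more against 10271 to 11239. The part of these library differences in the results was not tested. The share of fragments on Gm42418, a locus overlapping ribosomal RNA, was 0.06% in WT male 4 and 0.042% in Triple LKO female 1 and 3.19% to 4.34% in the other libraries.

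Because TTP proteins recognise the core TATTTAT, the 3′ UTR of each member's annotated transcript (GENCODE M21, GRCm38) was searched for it on the transcript strand. It occurred in 5 of the 10 members and in 26.8% of the 12173 coding genes tested. Longer 3′ UTRs held it more often, from 6.71% of genes with up to 500 bases to 60.2% of those over 2500 bases. Jag1 held 5 matches in 1568 bases and Notch1 held 4 in 1628 bases, and of the 1982 genes with 3′ UTRs over 1500 and up to 2500 bases, 38% held any match, 0.908% held 4 or more and 0.353% held 5 or more. Dll4, Notch3 and Notch4 held 1 match each in 1329, 1000 and 518 bases. Notch2, Jag2, Hes1, Hey1 and Heyl held none, in 3′ UTRs of 2917, 1070, 368, 1137 and 3245 bases. The matches are shown 5′ to 3′ on the transcript strand, with the core in capitals and 8 bases on each side, because TTP proteins recognise this core. AU-rich sites without this core were not searched for. A match is a description of the letters, and no binding was measured. Jag1 and Notch1 each held a pair of overlapping matches, seen in the first 2 lines for each gene.
Jag1, chr2:137082675-137082681, minus strand: catagtttTATTTATatttattg
Jag1, chr2:137082669-137082675, minus strand: tttatttaTATTTATtgactctt
Jag1, chr2:137082551-137082557, minus strand: gactttatTATTTATtttttttt
Jag1, chr2:137082344-137082350, minus strand: ttccttttTATTTATatgtatgt
Jag1, chr2:137081479-137081485, minus strand: aaaagtaaTATTTATtaaatttt
Notch1, chr2:26459371-26459377, minus strand: ttttttagTATTTATttatgtac
Notch1, chr2:26459367-26459373, minus strand: ttagtattTATTTATgtactttt
Notch1, chr2:26459327-26459333, minus strand: tgccttttTATTTATatgtattg
Notch1, chr2:26459173-26459179, minus strand: atgctgttTATTTATtgattgct
Dll4, chr2:119335629-119335635, plus strand: ataatgtgTATTTATaatatgaa
Notch3, chr17:32121650-32121656, minus strand: tcttccttTATTTATaatgggta
Notch4, chr17:34588300-34588306, plus strand: ctggcaacTATTTATtaagcacc

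The motif TGGGAA, the core bound by RBPJ, was searched on both strands of the RefSeq promoters (GRCm38.p6), each reaching from 250 bases before to 50 bases after the gene's start. Promoters were matched for 7 members, the receptors and the ligands, and 0 of them held it, against 25.6% of all 32851 promoters. No promoter was matched for the targets Hes1, Hey1 and Heyl, so theirs were not searched. This says only that these letters are not in this window.

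Seen as a whole, 6 members rose in the Triple LKO livers when both sexes were fitted together: Notch1, Notch3, Notch4, Dll4, Hes1 and Hey1. The test was limma on log2(FPKM + 1) with sex as a term, at a Benjamini-Hochberg adjusted p under 0.05 over the 13573 genes with a mean of at least 0.5 FPKM, and the same rule called 30.4% of all genes, 24.7% higher and 5.74% lower. The other 4 members, Notch2, Jag1, Jag2 and Heyl, did not pass and none fell. All 10 members were in the fit, but Notch3, Jag2, Hey1 and Heyl had a WT mean under 0.5 and passed the filter on low values only through the Triple LKO livers. Among the 6 members with a WT mean of at least 0.5, 4 rose. Scaling moved these calls: with median-of-ratios scaling, which takes the median of all genes from 0.39 to 0.05 on the log2 scale and the share of calls that are higher from 81.1% to 48.9%, 4 members were called higher beside 10.4% of all genes, and with quantile normalization, where 44.6% of calls were higher, 1 was called beside 8.27%. Without both females labelled Triple LKO, an alternative chosen after seeing the data, 3 members were called higher, Notch1, Hes1 and Hey1, beside 23.1% of all genes.

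**Figure D1:**
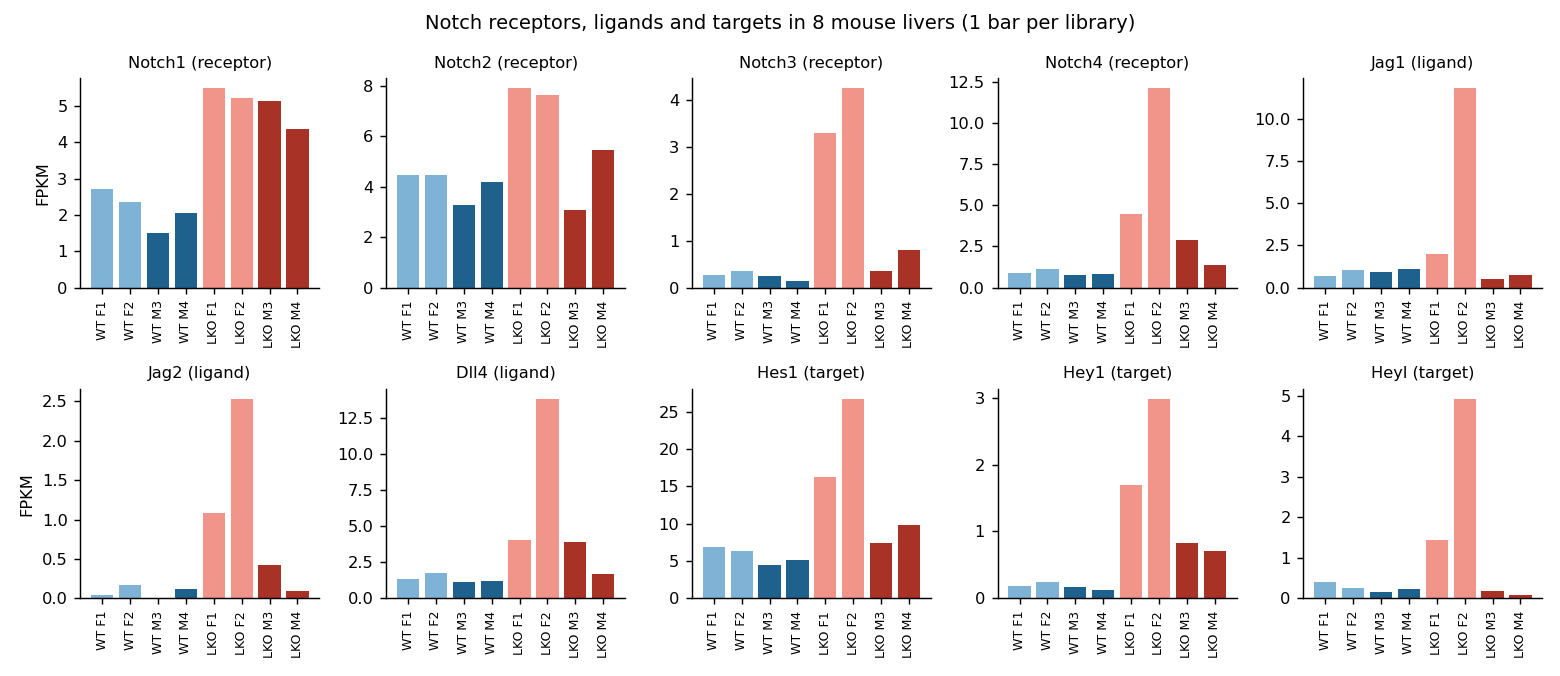
FPKM of the 10 members in each of 8 livers, 1 bar per library, F for female and M for male. Notch1 lies at 4.38 to 5.49 in all 4 Triple LKO livers against 1.51 to 2.72 in WT, whereas the highest bar of 8 members is Triple LKO female 2.

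Among the receptors, Notch1 had the most even change. It is the receptor known for T cell fate and for vessel growth. Notch1 (chr2:26457903-26516663, minus strand) measured 2.72, 2.37, 1.51 and 2.05 FPKM in WT livers 1 to 4 and 5.49, 5.22, 5.14 and 4.38 in Triple LKO livers 1 to 4, where 1 and 2 are females and 3 and 4 are males in each genotype. Every Triple LKO liver was above every WT liver, and the Triple LKO values spread over little more than 1 FPKM. The means were 2.16 ± 0.516 and 5.06 ± 0.475 FPKM (SD, n = 4), a 2.34-fold difference, with a log2 difference of 0.95 (SE 0.17, limma adjusted p = 0.00618). It rose within females by 0.84 (SE 0.21, limma adjusted p = 0.0187) and within males by 1.06 (SE 0.21, limma adjusted p = 0.0153). Notch1 was the only member that passed within males, where 13.4% of all genes were called higher and 4.09% lower. With quantile normalization 0 members were called higher within males, beside 6.45% of all genes. Its call within females was lost without either WT female (adjusted p 0.0799 and 0.122), and its female difference fell to 0.41 with median-of-ratios scaling (adjusted p 0.172) and to 0.20 with quantile normalization (0.48). Its call within males was lost without either WT male (adjusted p 0.118 and 0.0626) or either Triple LKO male (0.0941 and 0.058).

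Notch2, the receptor tied to bile duct formation, was the most abundant receptor in WT livers. Notch2 (chr3:98013527-98150361, plus strand) measured 4.48, 4.48, 3.27 and 4.20 FPKM in WT livers 1 to 4 and 7.90, 7.64, 3.08 and 5.46 in Triple LKO livers 1 to 4. The groups overlapped, since Triple LKO male 3 was the lowest of all 8 libraries. The log2 difference was 0.40 (SE 0.21, limma adjusted p = 0.172), near the median of 0.39 over all genes, and it turned to -0.07 under quantile normalization. Within females the difference was 0.68 (limma adjusted p = 0.08) and within males 0.12 (limma adjusted p = 0.793).

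Notch3, the receptor of smooth muscle and pericytes, was scarce in WT. Notch3 (chr17:32120820-32166852, minus strand) measured 0.269, 0.358, 0.248 and 0.140 FPKM in WT livers 1 to 4 and 3.30, 4.25, 0.364 and 0.809 in Triple LKO livers 1 to 4. Both females labelled Triple LKO stood far above the rest, and Triple LKO male 3, with 55 fragments, was barely above WT female 2, with 49. The change was 1.13 on the log2 scale (SE 0.32, limma adjusted p = 0.0296), 1.86 within females (SE 0.24, limma adjusted p = 0.0018) and 0.40 within males (SE 0.24, limma adjusted p = 0.299). The female change exceeded the male change by 1.46 (SE 0.35, limma adjusted p = 0.0481), the one member for which this interaction passed, where 7.21% of all genes passed, 5.47% in that direction and 1.73% in the other. The interaction was no longer past the threshold in 14 of the 17 alternatives that could be fitted. The call for both sexes was lost in 11 of 19 alternatives. It was lost without WT female 1 or WT female 2 (adjusted p 0.0842 and 0.0911). It was also lost without Triple LKO female 1, Triple LKO female 2 or Triple LKO male 4 (adjusted p 0.063, 0.0574 and 0.0572). With the livers paired by sex and title number the adjusted p was 0.0742, and with quantile normalization 0.0657.

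Notch4, a receptor largely of endothelium, rose by 1.41 on the log2 scale (SE 0.37, limma adjusted p = 0.0247). Notch4 (chr17:34564268-34588503, plus strand) measured 0.895, 1.15, 0.773 and 0.843 FPKM in WT livers 1 to 4 and 4.46, 12.1, 2.87 and 1.39 in Triple LKO livers 1 to 4. All 4 Triple LKO livers were above all WT livers, with the highest value in Triple LKO female 2. Within females it rose by 2.07 (SE 0.42, limma adjusted p = 0.0088), and within males the difference was 0.75 (SE 0.42, limma adjusted p = 0.254). The call for both sexes was lost in 9 of 19 alternatives. It was lost without WT female 1, WT female 2 or Triple LKO male 3 (adjusted p 0.0712, 0.0752 and 0.054). Median-of-ratios scaling (0.0525) and quantile normalization (0.0958) also lost it.

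The mix of receptors differed with these changes. Notch2 made up 53.6% to 58.0% of the summed receptor FPKM in the 4 WT livers and 37.4%, 26.2%, 26.9% and 45.4% in Triple LKO livers 1 to 4, below every WT liver. Notch4 was the largest share in Triple LKO female 2, at 41.4%, and Notch1 in Triple LKO male 3, at 44.9%. Notch3 took 15.6% and 14.5% in the females labelled Triple LKO and 3.18% and 6.72% in the males, against 1.93% to 4.29% in WT. These shares are a description, and no test was made of them.

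**Figure D2:**
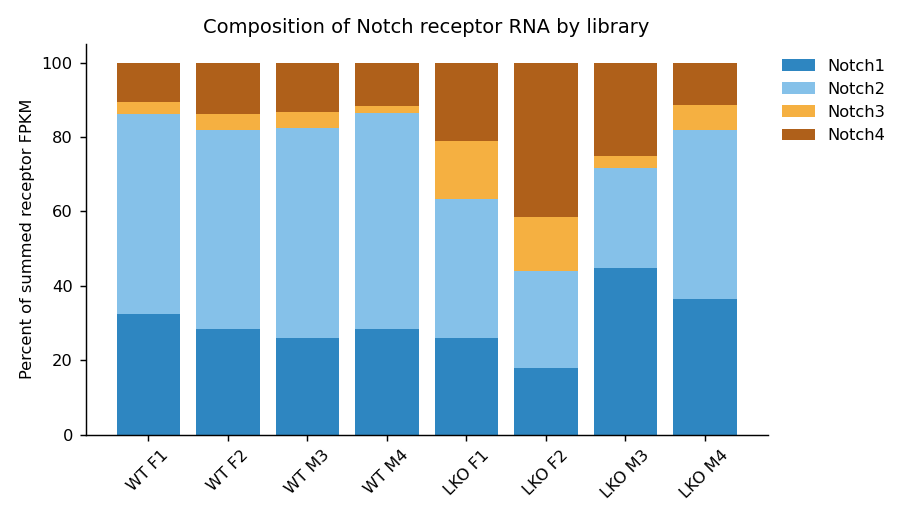
Share of the summed FPKM of Notch1, Notch2, Notch3 and Notch4 that each receptor holds, in percent, with 1 stacked bar per library. The Notch2 share is 53.6% to 58.0% in WT livers and 26.2% to 45.4% in Triple LKO livers.

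Of the 3 ligands, 1 passed with both sexes together. Dll4, the Delta-like ligand of endothelial tip cells and arteries, rose by 1.26 on the log2 scale (SE 0.39, limma adjusted p = 0.04). Dll4 (chr2:119325784-119335962, plus strand) measured 1.35, 1.79, 1.11 and 1.18 FPKM in WT livers 1 to 4 and 4.06, 13.8, 3.91 and 1.66 in Triple LKO livers 1 to 4. Triple LKO male 4 lay inside the WT range and the others lay above it. The change was 1.76 within females (SE 0.5, limma adjusted p = 0.031), and the difference was 0.75 within males (SE 0.5, limma adjusted p = 0.338). The call for both sexes was lost in 13 of 19 alternatives. It was lost without any 1 of the 4 WT livers (adjusted p 0.108, 0.104, 0.0694 and 0.0596) or Triple LKO male 3 (0.0891). Pairing the livers by sex and title number (0.054), median-of-ratios scaling (0.102) and quantile normalization (0.183) also lost it.

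Jag1, the ligand whose loss causes Alagille syndrome with too few bile ducts in humans, had a single liver far from the rest. Jag1 (chr2:137081456-137116644, minus strand) measured 0.665, 1.05, 0.898 and 1.10 FPKM in WT livers 1 to 4 and 2.0, 11.8, 0.541 and 0.740 in Triple LKO livers 1 to 4. Triple LKO female 2 was far above every other liver, Triple LKO male 3 was below all 4 WT livers and Triple LKO male 4 below 3 of them. The log2 difference was 0.73 (SE 0.53, limma adjusted p = 0.304), and 0.11 without Triple LKO female 2. Within females it was 1.75 (SE 0.58, limma adjusted p = 0.0515) and within males -0.29 (SE 0.58, limma adjusted p = 0.788). The difference within females passed without Triple LKO female 1 or Triple LKO female 2 (adjusted p 0.00051 and 0.0359), fits in which the lone remaining liver is assumed to vary like the other groups. It also passed with the livers paired by sex and title number (0.0274), with a pseudocount of 0.1 (0.035) and without both libraries low in Gm42418 (0.00261).

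Jag2, a second Jagged ligand, was close to absent in WT, with 3, 12, 0 and 7 fragments in WT livers 1 to 4. Jag2 (chr12:112907819-112929776, minus strand) measured 0.0446, 0.174, 0 and 0.114 FPKM there and 1.09, 2.53, 0.420 and 0.0968 in Triple LKO livers 1 to 4. The value of 0 in WT male 3 allows a level of up to 0.041 FPKM, from 3 fragments and counting error only. The groups overlapped because of Triple LKO male 4, which had 7 fragments. The log2 difference was 0.77 (SE 0.30, limma adjusted p = 0.0767), with a rise of 1.30 within females (SE 0.31, limma adjusted p = 0.0164) and a difference of 0.24 within males (SE 0.31, limma adjusted p = 0.642). In fold terms the means differed 12.4-fold, a value that rests on those few WT fragments.

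Among the targets, Hes1, a repressor that keeps progenitors undifferentiated, was the most abundant member in every liver. Hes1 (chr16:30064384-30067796, plus strand) measured 6.89, 6.29, 4.41 and 5.14 FPKM in WT livers 1 to 4 and 16.2, 26.7, 7.47 and 9.86 in Triple LKO livers 1 to 4. Within each sex, both Triple LKO livers were above both WT livers, and the genotypes did not overlap. It rose by 1.13 on the log2 scale (SE 0.24, limma adjusted p = 0.0119) and 2.65-fold in the means, from 5.68 ± 1.12 to 15.1 ± 8.59 FPKM (SD, n = 4). Within females it rose by 1.53 (SE 0.27, limma adjusted p = 0.00556), and within males the difference was 0.73 (SE 0.27, limma adjusted p = 0.106). Its call for both sexes was kept without each single library.

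Hey1, a HEY-family repressor of vessels and heart, went from 4 to 9 fragments per WT library to 28 to 110 per Triple LKO library. Hey1 (chr3:8663359-8667256, minus strand) measured 0.191, 0.240, 0.176 and 0.120 FPKM in WT livers 1 to 4 and 1.69, 2.98, 0.821 and 0.713 in Triple LKO livers 1 to 4. All Triple LKO livers were above all WT livers, males included. The change was 1.02 on the log2 scale (SE 0.24, limma adjusted p = 0.0174) and 1.43 within females (SE 0.25, limma adjusted p = 0.00541), with a difference of 0.62 within males (SE 0.25, limma adjusted p = 0.132). The call for both sexes was lost in 3 of 18 alternatives. These were without WT female 1, without WT female 2 and without both libraries low in Gm42418 (adjusted p 0.054, 0.0595 and 0.0537).

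Heyl, a target known in mural cells, was high only in the females labelled Triple LKO among these 8 livers. Heyl (chr4:123233556-123249875, plus strand) measured 0.398, 0.259, 0.146 and 0.219 FPKM in WT livers 1 to 4 and 1.43, 4.92, 0.176 and 0.0742 in Triple LKO livers 1 to 4. The Triple LKO males lay within or below the WT range. The log2 difference was 0.72 (SE 0.39, limma adjusted p = 0.181), with a rise of 1.51 within females (SE 0.39, limma adjusted p = 0.0225) and -0.07 within males (limma adjusted p = 0.929). Without Triple LKO female 2 the difference for both sexes was 0.31.

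Set side by side, 8 members rose within females, where 34.3% of all genes changed, 28.1% rising and 6.23% falling, and 1 rose within males. Among the 6 members with a WT mean of at least 0.5, 4 rose within females, and the other 4 of the 8 passed the filter only through their high group. The 2 that did not pass within females were Notch2 and Jag1. All 10 members were higher in both females labelled Triple LKO than in every other library, a pattern that 30.3% of tested genes shared, and 8 members were highest in Triple LKO female 2, as were 25.5% of tested genes. Every Triple LKO liver was above every WT liver for 5 members, Notch1, Notch3, Notch4, Hes1 and Hey1, against 25.6% of tested genes, and no member had the reverse order, which 5.72% of tested genes had. The exact two-sided permutation test over the 70 choices of 4 of 8 libraries was run on all 10 members, unadjusted; for members whose groups do not overlap it gives its smallest p, 0.0286, and so adds nothing to that order. Dll4 had an exact p = 0.0571 and Jag2 an exact p = 0.0857. The median log2 difference over the members was 1.52 within females, with 0.45 over all genes, and 0.51 within males, with 0.24 over all genes; both medians include members that passed the filter only through their high group. Without WT female 1 the females' count fell to 3 members and without WT female 2 to 4, with 12.1% of all genes called higher in each of these fits. The males' count fell to 0 by limma without either male of either genotype, where 1.58% to 4.64% of all genes were called higher. Without Triple LKO female 1 or 2 the males' count was 3, beside 23.1% and 23.2% of all genes. The members with a passing interaction numbered 6 without Triple LKO female 1 and 3 without Triple LKO female 2, beside 13.8% and 15.3%.

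**Figure D3:**
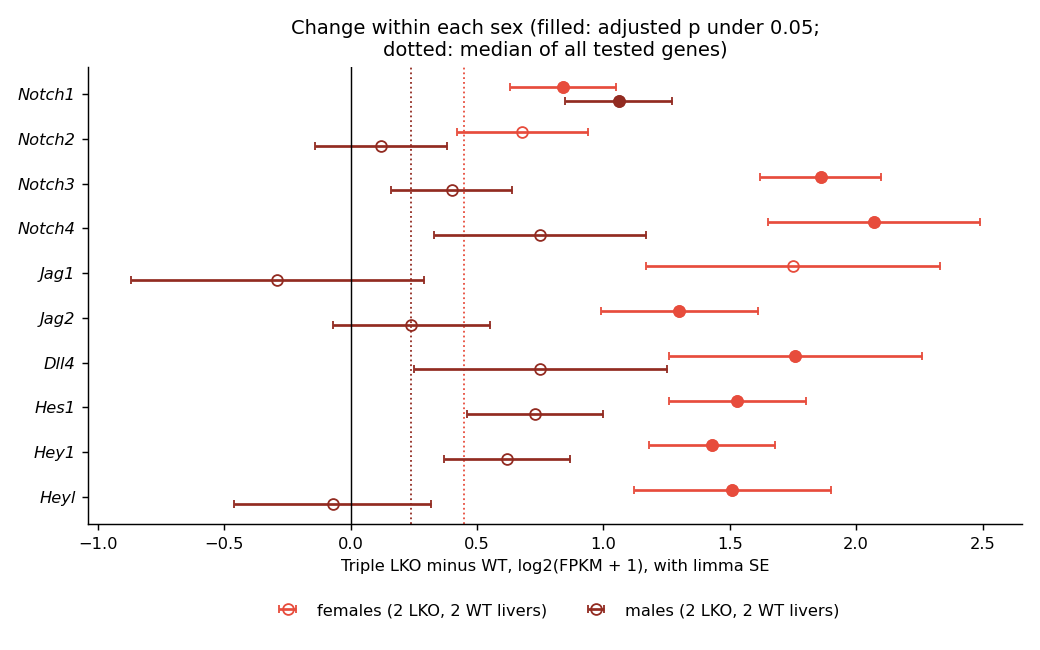
Difference between Triple LKO and WT on the log2(FPKM + 1) scale within females and within males, with limma SE as bars, from 2 livers per genotype and sex. Filled points passed an adjusted p under 0.05, and dotted lines give the median of all tested genes, 0.45 in females and 0.24 in males. Notch1 is the only member filled in both sexes.

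The other genes of the pathway were taken from a list of 57, of which 46 had enough signal to be tested. With both sexes together 11 rose and 2 fell, beside 24.7% of all genes called higher and 5.74% lower. Their median log2 difference was 0.39, the same as over all genes. Within females 22 rose and 0 fell by limma, with 0 lower at an unadjusted p under 0.05 or by voom. Of all genes, 28.1% rose and 6.23% fell within females. Within males 2 rose and 4 fell, beside 13.4% and 4.09% of all genes. The counts per role below stand beside these same shares. Neurl1a, Neurl1b, Numbl and Maml2 had a WT mean under 0.5 and passed the filter only through the Triple LKO livers; of the other 42, 9 rose with both sexes together and 19 within females. The calls varied in how often the alternatives kept them: Adam10 and Nrarp lost theirs in 0 of 19, Tle3 in 3, Hdac1 in 4, Pofut1, Numbl and Efnb2 in 5, Tle1 in 7, Tle2 in 8, and Poglut1 and Dtx3 in 12, while Neurl1b lost its call in 3 of 18. The list was drawn up with earlier results of these data known.

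In the group that matures and glycosylates receptors, 2 of 6 genes rose. Pofut1, which adds O-fucose to Notch, rose by 0.88 on the log2 scale (SE 0.22, limma adjusted p = 0.021), and Poglut1, which adds O-glucose, by 0.88 (SE 0.23, limma adjusted p = 0.0254). Within males their differences were 0.82 and 0.73 (limma adjusted p = 0.106 and 0.153). The Fringe enzyme Lfng, which extends O-fucose and shifts ligand preference, split by sex. Lfng measured 2.35, 2.66, 1.67 and 2.49 FPKM in WT livers 1 to 4 and 7.93, 7.97, 0.653 and 1.43 in Triple LKO livers 1 to 4. Both females labelled Triple LKO were above and both Triple LKO males below all WT livers, and the female change exceeded the male one by 1.97 (limma adjusted p = 0.0268). Mfng, another Fringe enzyme, had a log2 difference of 0.66 (limma adjusted p = 0.15), and Furin, the protease of receptor maturation, 0.20 (limma adjusted p = 0.407).

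Of the 8 tested genes of receptor cleavage, 1 rose. Adam10, the protease that makes the ligand-dependent cut, measured 8.34, 7.90, 6.70 and 5.81 FPKM in WT livers 1 to 4 and 18.2, 24.3, 11.2 and 15.7 in Triple LKO livers 1 to 4. No Triple LKO liver reached down to the WT range. It rose by 1.13 (SE 0.19, limma adjusted p = 0.00494), and also within males by 0.98 (limma adjusted p = 0.0338). The related protease Adam17 had a difference of 0.52 (limma adjusted p = 0.124), and the gamma-secretase subunits Ncstn and Aph1b had 0.48 and 0.55 (limma adjusted p = 0.0881 and 0.121).

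Ligand activity depends on ubiquitin ligases that drive endocytosis, and 1 of 4 rose. Neurl1b rose by 0.80 (SE 0.18, limma adjusted p = 0.0154), from 0.0358 to 0.171 FPKM in WT to 0.828 to 0.984 in Triple LKO livers, and within males by 0.86 (limma adjusted p = 0.0354). Its relative Neurl1a had a difference of 1.49 (SE 0.52, limma adjusted p = 0.0575). Mib1, the main such ligase, had 0.33 (limma adjusted p = 0.318). Mib2 went opposite ways, up by 0.75 within females (limma adjusted p = 0.0245) and down by 0.71 within males, a log2 difference of -0.71 (limma adjusted p = 0.0495), with an interaction of 1.46 (limma adjusted p = 0.0299).

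Of 7 tested genes of receptor turnover, 2 rose, Numbl by 1.37 (limma adjusted p = 0.0202) and Dtx3 by 1.60 (limma adjusted p = 0.0347). Numbl, a relative of the Notch inhibitor Numb, measured 0.052 to 0.201 FPKM in WT and 4.30, 4.72, 0.544 and 0.593 in Triple LKO livers 1 to 4. Dtx3, a Deltex ubiquitin ligase, measured 1.0 to 2.02 FPKM in WT and 13.8, 20.3, 1.98 and 2.36 in Triple LKO livers 1 to 4. In both genes the change was larger in females, by 1.70 for Numbl (limma adjusted p = 0.0231) and 2.47 for Dtx3 (limma adjusted p = 0.0196). Dtx4 had a difference of 1.19 (limma adjusted p = 0.062) and Fbxw7, the ligase that ends the nuclear signal, 0.44 (limma adjusted p = 0.0748).

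In the nuclear complex 0 of 7 genes passed by limma with both sexes together, 1 had an unadjusted p under 0.05 and 1 passed by voom. Rbpj, the DNA-binding partner of Notch, had the smallest p, with a difference of 0.57 (SE 0.20, limma adjusted p = 0.061). Rbpj measured 4.28, 4.23, 2.52 and 3.49 FPKM in WT livers 1 to 4 and 5.96, 9.81, 4.36 and 4.17 in Triple LKO livers 1 to 4. Maml2, Snw1 and Ep300, coactivators of the complex, had 0.36, 0.40 and 0.48 (limma adjusted p = 0.26, 0.239 and 0.122). Among 9 corepressors 3 rose and 2 fell. Hdac1 rose by 0.70 (limma adjusted p = 0.0167) and Tle3 by 1.12 (limma adjusted p = 0.014), while the Groucho relatives Tle1 and Tle2 fell, by 0.79 (limma adjusted p = 0.0216) and by 0.90 (limma adjusted p = 0.0276). Within males Tle1 and Tle2 fell by 1.0 and by 1.37 (limma adjusted p = 0.0357 and 0.0117), and Hdac1 and Tle3 each had a difference of 0.63 (limma adjusted p = 0.085 and 0.117). The third that rose, Ctbp1, is named because of the count, after its value of 0.60 was seen (limma adjusted p = 0.0308).

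Of 3 tested further targets, 2 rose. Nrarp, an inhibitor that Notch itself induces, measured 1.59, 0.479, 0.515 and 0.666 FPKM in WT livers 1 to 4 and 4.85, 10.5, 2.97 and 2.0 in Triple LKO livers 1 to 4. The groups did not overlap, and it rose by 1.59 on the log2 scale (SE 0.32, limma adjusted p = 0.01). Efnb2, an arterial ephrin, rose by 1.10 (SE 0.26, limma adjusted p = 0.0177). Within males Nrarp and Efnb2 had differences of 1.12 and 0.67 (limma adjusted p = 0.0894 and 0.157). Sox9, a transcription factor of bile duct cells, had a difference of 0.87 (limma adjusted p = 0.141) with a rise of 1.67 within females (limma adjusted p = 0.0274). Hes6, a HES relative that counters Hes1, had -0.96 (limma adjusted p = 0.108). It fell within males, with a log2 difference of -1.78 (limma adjusted p = 0.036). Dll1, the one other ligand tested, had -0.20 (limma adjusted p = 0.451). Hes5, Hes2 and Hes3 were at 0 in every library, which allows up to 0.125 to 0.156 FPKM for Hes5.

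**Figure D4:**
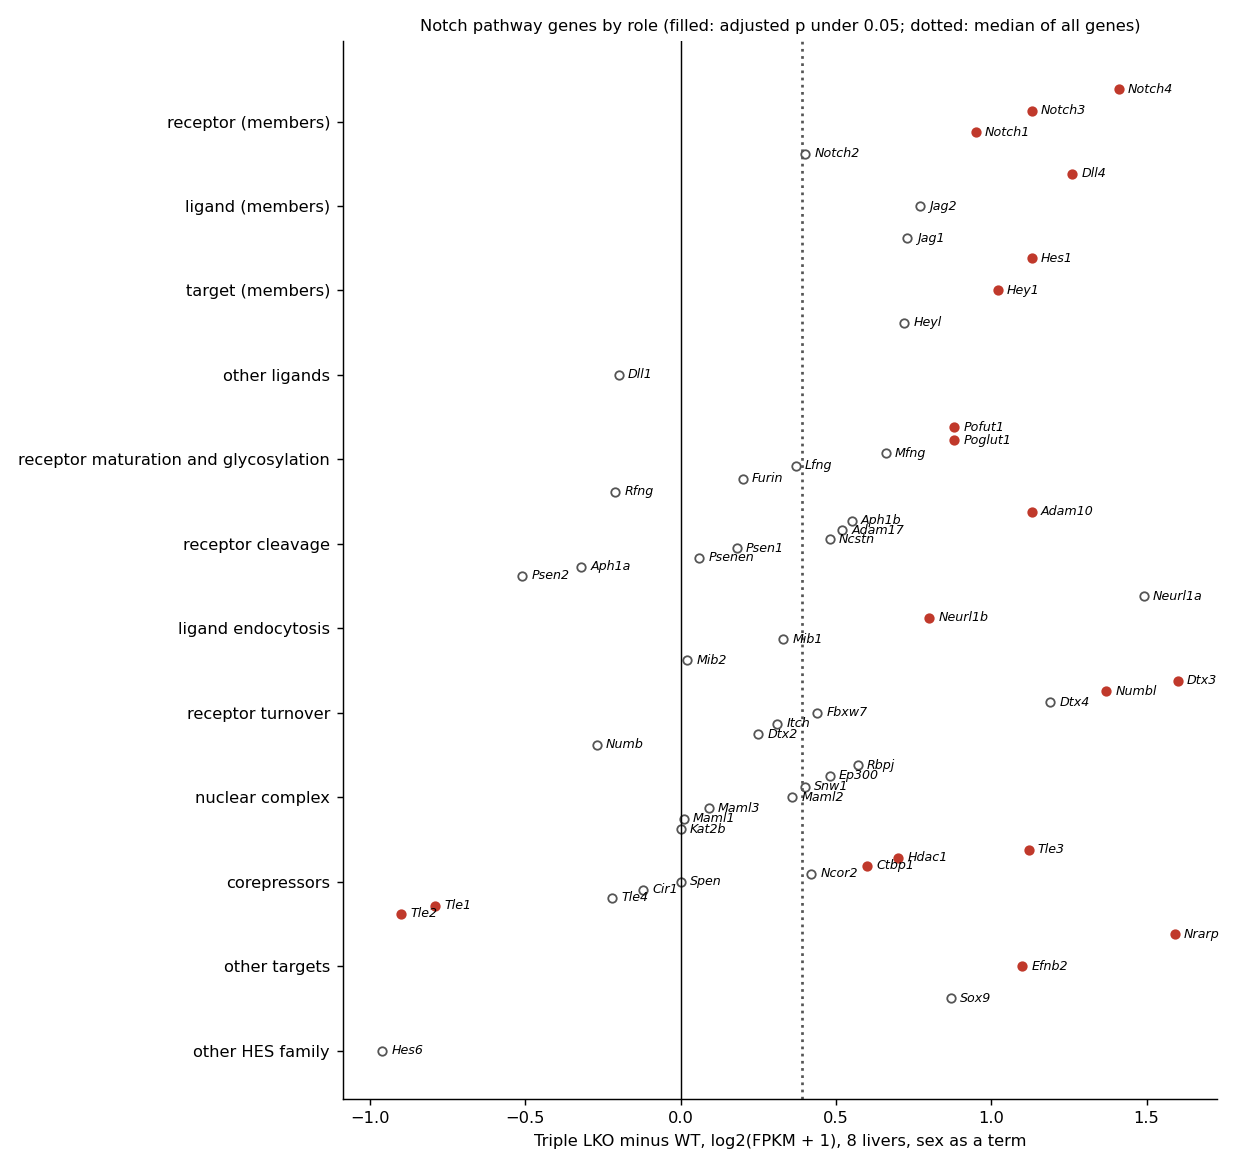
Difference between Triple LKO and WT on the log2(FPKM + 1) scale for the 10 members and the 46 other tested Notch pathway genes, grouped by role, from 8 livers with sex as a term. Filled points passed an adjusted p under 0.05, and the dotted line is the median of all genes at 0.39. Points of the nuclear complex are all open, and Tle1 and Tle2 are the filled points below 0.

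These are bulk livers, in which fewer cells of a type and less RNA per cell cannot be told apart, and the marker levels of other cell types also differed between libraries, most of all between the females labelled Triple LKO and the males. Endothelial markers summed to 160, 166, 102 and 113 FPKM in WT livers 1 to 4 and 158, 340, 122 and 98.2 in Triple LKO livers 1 to 4. Of the 15, 3 rose and 2 fell, beside 24.7% of all genes called higher and 5.74% lower. Counts for the marker lists below stand beside these same shares. Those that rose were Cdh5, Vwf and Emcn. Emcn lay at 0.818 to 1.07 FPKM in WT and at 3.14 to 9.38 in Triple LKO livers. Emcn had a log2 difference of 1.70 (limma adjusted p = 0.00311). The most abundant were Plvap, Eng and Clec4g, and Clec4g, of liver sinusoids, fell by 2.28 on the log2 scale (limma adjusted p = 0.017). Against Pecam1, a general endothelial marker, Notch4 stood at a ratio of 0.0949 to 0.123 in WT and 0.171 to 0.240 in Triple LKO livers, and Dll4 at 0.143 to 0.187 and 0.205 to 0.311. Neither ratio overlapped between genotypes. Against Cdh5, another endothelial marker, both did overlap: 0.083 to 0.151 and 0.13 to 0.291 for Notch4, and 0.125 to 0.216 and 0.156 to 0.305 for Dll4. Ratios of Hey1 to Cdh5 did not overlap, at 0.0177 to 0.0343 in WT and 0.0519 to 0.11 in Triple LKO livers. Hey1 had only 4 to 9 fragments per WT library and was not set against Pecam1. Notch4, Dll4 and Hey1 were not set against Emcn or the rest of this list. The part of endothelial cells in the result was not tested.

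Stellate and mural markers summed to 168, 175, 101 and 102 FPKM in WT livers 1 to 4 and 272, 925, 58.7 and 59.5 in Triple LKO livers 1 to 4, so the sum was high in the same 2 females as Notch3 and Heyl. All 10 members and 30.3% of tested genes were likewise higher in both of these females than in every other library. With both sexes together 3 of 14 tested rose and 2 fell, beside 24.7% of all genes called higher and 5.74% lower. Within females 7 rose and 1 fell, beside 28.1% and 6.23% of all genes. The list did not move as one: Lrat measured 5.06 and 9.49 FPKM in WT females and 0.276 and 5.04 in the females labelled Triple LKO, and Reln 5.01 and 5.65 against 0.532 and 2.23 (limma adjusted p within females 0.113 and 0.015). The most abundant were Dcn, Col1a1 and Rgs5, of which Col1a1 rose by 3.91 on the log2 scale (limma adjusted p = 0.0151). The ratio of Notch3 to Pdgfrb, a mural cell receptor, was 0.155 to 0.261 in WT and 0.298, 0.138, 0.301 and 0.521 in Triple LKO livers 1 to 4, and that of Heyl to Pdgfrb was 0.147 to 0.362 and 0.0478 to 0.16, so both ratios overlapped. The part of these cells in the result was not tested.

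Biliary markers summed to 55.6 to 80.2 FPKM in WT, 379 and 3260 in the females labelled Triple LKO, and 39.2 and 28.2 in the Triple LKO males. Spp1, also made by macrophages, gave most of this in those females, at 291 and 3150 FPKM; with Aqp1 and Ggt1 it was the most abundant of the list. The defining keratins Krt7 and Krt19 stayed under 1 FPKM in every library, Krt19 was at 0 in both Triple LKO males, and 0 of 6 tested biliary markers passed by limma with both sexes together (2 at an unadjusted p under 0.05, 1 by voom). Within females 2 of the 6 rose, Spp1 and Cldn7, beside 28.1% of all genes. Both had a passing interaction, as had 7.21% of all genes. Cldn7, Epcam and Ggt1 had WT means of 0.35, 0.386 and 0.0541 FPKM and passed the filter only through the Triple LKO livers. For Cldn7 these were the 2 females in which it was then called higher. Jag1 and Sox9 shared their highest library with this list, Triple LKO female 2. That library was the highest for 8 of the 10 members and for 25.5% of tested genes. The part of bile duct cells was not tested.

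Macrophage markers summed to 134 to 306 FPKM in WT, 774 and 1100 in the females labelled Triple LKO and 88.6 and 130 in the Triple LKO males. Lyz2 gave most of the sum in those females, at 531 and 721 FPKM. Of 11, 2 rose and 5 fell, with Lyz2, C1qa and Clec4f the most abundant. The list did not move as one: within females 5 rose and 5 fell, beside 28.1% and 6.23% of all genes. Those that fell, with both sexes and within females, were Clec4f, Vsig4, Marco, Timd4 and Cd163. Lymphocyte markers summed to 3.13 to 14.1 FPKM in WT, 17.9 and 47.2 in the females labelled Triple LKO and 2.92 and 2.47 in the Triple LKO males. Ptprcap, Cd79a and Nkg7 were the most abundant. With both sexes together 0 of 9 tested passed by limma (1 at an unadjusted p under 0.05, 1 by voom). Within females 4 rose, Cd3g, Cd4, Cd8a and Nkg7. Of these, Cd4 and Cd8a had WT means of 0.29 and 0.164 FPKM and passed the filter only through the Triple LKO livers. Hepatocyte markers summed to 44000 to 50900 FPKM in WT and 21800 to 32100 in Triple LKO livers, all Triple LKO livers being lower. Alb gave most of each sum, at 30800 to 36000 FPKM in WT and 15100 to 21900 in Triple LKO livers (limma adjusted p = 0.0715). Of the 10, 4 fell, Hnf4a, Tat, Asgr1 and Serpina1c, beside 5.74% of all genes. The most abundant, Alb, Apoa1 and Ttr, did not pass. Within females Apoa1 and Ttr had differences of 0.32 and 0.29 (limma adjusted p = 0.52 and 0.652). The part of macrophages and lymphocytes in the members' rises was not tested.

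**Figure D5:**
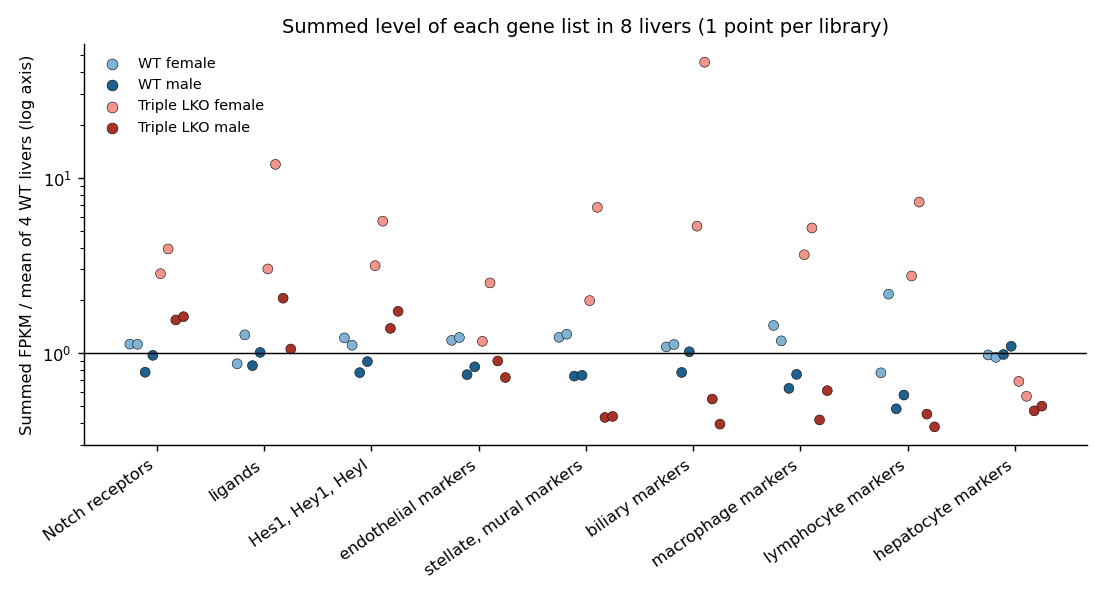
Summed FPKM of the members by role and of each cell type marker list, divided by the mean of the 4 WT livers, on a log axis, with 1 point per library. The females labelled Triple LKO are the highest points of the receptors, ligands and targets and of the stellate, biliary and macrophage lists, and all 4 Triple LKO livers lie under WT for hepatocyte markers. Alb gives most of every hepatocyte sum. Spp1 and Lyz2 give most of the biliary and macrophage sums in those females.

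As a description of the profile over the 8 libraries, the protein-coding genes most like each member by Pearson's r of log2(FPKM + 1) were looked up. Notch1 was closest to Matr3 (r = 0.996), Dapk2 and Gys1, and Notch2 to Ajuba (r = 0.992), Taok1 and Bin2. For Notch3 these were Slc25a24 (r = 0.997), Cyth4 and Itpripl2, and for Notch4 Cxcr4 (r = 0.997), Prdm1 and Sema7a. Jag1 lay nearest Rassf9 (r = 0.998), Tmeff2 and Sftpd, Jag2 nearest Tnfrsf26 (r = 0.994), Slc16a3 and Ackr3, and Dll4 nearest Galnt15 (r = 0.995), Slc10a6 and Pik3ip1. Hes1 was closest to Ctss (r = 0.995), Chmp4c and Ccdc88a, Hey1 to Snx1 (r = 0.998), Cd93 and Ahnak, and Heyl to Ccr7 (r = 0.998), Antxr1 and Tmem45a. All points share the same 8 libraries, and each is the highest of many correlations over few libraries.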

How the data were processed

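RNA was sequenced from 8 mouse livers, 4 per genotype. The authors deposited 1 table of FPKM values, and the submitters' processing notes name the build mm10 and the tools fastp, STAR 2.6.1, HTSeq and DESeq2, with no role given for each; the sources used here state neither annotation nor strandedness. Whole fragments were recovered from the FPKM steps for 100% of identifiers within 0.001 fragment, and libraries held 15109700 to 18788679. Symbols were found for 34490 of 35275 identifiers. In R 4.3.3 with limma 3.58.1, log2(FPKM + 1) of genes with a mean of at least 0.5 FPKM was fitted with trend, for genotype with sex as a term, and for effects within each sex and their difference with 1 mean per genotype and sex. Differences are on the log2(FPKM + 1) scale, which understates low genes. The fits were tested on simulated data.

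Members, lists and motifs were chosen with earlier results of these data known. Named are the members, up to 4 genes per pathway role by genotype p with any whose interaction passed, the 3 most abundant markers per list with any at 0 throughout, the deleted genes, and the 3 closest profiles per member; other genes named beside a ratio, a list or a count were chosen after their values were seen. Alternatives were other pseudocounts, filters, scalings, voom on fragments, no sex term, a block on livers paired by sex and neighbouring title numbers, and libraries left out. The title numbers are no shared replicate labels, so the block stayed an alternative. Intervals and floors cover counting error only.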

Additional observations from a re-analysis of the deposited data

Results flagged for a closer look

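Chance sets about 1 in 20 groups of 4 apart in this way, and many groups were looked at. Among the members, Jag1 at 11.8 FPKM in Triple LKO female 2 stood apart from the other 3 Triple LKO livers at 0.541 to 2.0. Among the other pathway genes, Neurl1a at 11 FPKM in Triple LKO female 1 stood apart from the other 3 Triple LKO livers at 0.461 to 1.58. Of the same pathway genes in WT livers, Dtx4 at 3.50 FPKM in male 3 stood apart from 1.33 to 1.58. Fbxw7 at 2.63 in WT male 4 stood apart from 2.08 to 2.13, and Nrarp at 1.59 in WT female 1 from 0.479 to 0.666.

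The change differed between the sexes, by the interaction in limma, for Notch3 by 1.46 on the log2 scale (adjusted p = 0.0481), Lfng by 1.97 (adjusted p = 0.0268), Mib2 by 1.46 (adjusted p = 0.0299), Numbl by 1.70 (adjusted p = 0.0231) and Dtx3 by 2.47 (adjusted p = 0.0196). These interactions were no longer past the threshold in 14, 9, 10, 10 and 7 of 17 alternatives in the same order, and with voom none of the 5 passed (adjusted p 0.186, 0.0713, 0.0611, 0.194 and 0.0794). Each has 2 livers per genotype and sex, and the females labelled Triple LKO are those in which Zfp36l2 goes against the label.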

How the results depend on the processing

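The 6 members called with both sexes became 3 with no filter on low values, 1 with quantile normalization, 4 with median-of-ratios scaling, 7 with voom, 3 with no sex term, 2 without both libraries low in Gm42418, 3 without both females labelled Triple LKO, and 2 to 5 leaving out 1 library (2 without WT female 1 or 2); the cause was not tested. The replicate block, on livers paired by sex and title number, left 4 members, without Notch3 (adjusted p = 0.0742) and Dll4 (0.054); deviations of paired livers correlated at 0.131 in females and 0.15 in males. Over all genes, the 4132 calls became 2513 with quantile normalization, 1970 without both libraries low in Gm42418, 2505 with the replicate block and 1957 to 4054 leaving out 1 library. Within females 4657 calls became 1999 to 6023 leaving out 1 library. Within males 2374 became 1574 with no filter and 341 to 4141. The interaction's 978 became 577 with pseudocount 0.1, 604 with no filter, 27 with voom, 569 with the replicate block and 31 to 2837. With both sexes together, Hes1 and Notch1 kept their calls in every alternative except quantile normalization (adjusted p = 0.0793 and 0.122). Signs reversed under median-of-ratios scaling for Furin (-0.24), Mib1 (-0.08), Mib2 (-0.37) and Notch2 in males (-0.16); under quantile normalization for Notch2 (-0.07; males -0.22), Lfng (-0.07), Mib1 (-0.09), Mib2 (-0.41), Fbxw7 (-0.07), Maml2 (-0.02) and Snw1 (-0.05); with totals without the 50 most abundant genes for Mib2 (-0.08); without both females labelled Triple LKO for Jag1 (-0.29), Heyl (-0.07), Lfng (-0.61) and Mib2 (-0.71); and leaving out 1 library for Mib2 (-0.16 to 0.21) and Notch2 in males (-0.21 to 0.46). A mean of at least 1 FPKM left Jag2, Hey1 and Heyl untested. With 0 to 12 fragments per WT library, Jag2 has little depth behind its fold.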

Other observations

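Itch, a ubiquitin ligase of Notch turnover, was looked at after its values were seen. It measured 17.6, 18.4, 14.7 and 18.0 FPKM in WT livers 1 to 4 and 11.7, 132.0, 9.54 and 13.3 in Triple LKO livers 1 to 4. Triple LKO female 2 thus stood far above the other 7 libraries. Nearby genes on chromosome 2 did not share that height: Ahcy measured 713.0 to 864.0 FPKM in WT livers and 172.0 in Triple LKO female 2, and Dynlrb1 measured 57.0 to 72.1 and 82.3.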
